A study of Mus musculus with 15 samples.

Results

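H19, Igf2 and the receptors for insulin-like growth factors (Igf2r and Igf1r) were described across 15 transcript profiles labelled as mouse heart muscle cells. The growth-restraining imprinted gene Cdkn1c was listed with them. Of these 5 genes, 4 were among the 9666 genes of the deposited table, and all 4 passed the filter on low values that left 9389 genes for testing. Cdkn1c was not analysed here, and every gene of the table used exceeded 0.1 RPKM in every library. The genes were chosen by name, and they were selected on measured values: the 4 were known to be higher in neonatal than in adult libraries, so their difference from adult is given below as a description, with no test. P3 against P1 was not part of that choice and was tested.

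The libraries came from ventricular cardiomyocytes isolated from wild-type C57BL/6 mice at postnatal day 1 (P1, n = 4), at postnatal day 3 (P3, n = 4) and as adults aged 8 to 12 weeks (n = 7). No group carried a transgene, a deletion or a treatment according to the labels. Levels are in RPKM, reads per kilobase of gene scaled to library depth, so genes can be compared per length. Nothing in the labels ties each library to its own animal or says whether hearts were pooled, and the p-values therefore reflect library-to-library spread that could be technical.

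Igf2 encodes a secreted growth factor of fetal tissues, and H19 is a long noncoding RNA transcribed from the same imprinted domain. Igf2 is expressed from the paternal copy and H19 from the maternal copy, because the protein CTCF binds an unmethylated control region on the maternal chromosome and blocks the enhancers that both genes share. IGF2 signals through the tyrosine kinase IGF1R and through a form of the insulin receptor. IGF2R, the cation-independent mannose 6-phosphate receptor, instead carries IGF2 to lysosomes for degradation. In mice Igf2r is expressed from the maternal copy, and the antisense RNA Airn silences the paternal one. In heart, IGF signalling is known for driving cardiomyocyte proliferation before birth.

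In mm10, H19 lies at chr7:142575529-142578143 on the minus strand, and Igf2 lies at chr7:142650766-142666816 on the same strand, with the gene starts 88.7 kb apart. Cdkn1c lies 882.9 kb from the H19 start on the same chromosome, and Igf1r lies far from them at chr7:67952827-68233668 on the plus strand. Igf2r lies at chr17:12682406-12769664 on the minus strand. Both imprinted transcripts also carry microRNAs, which are shown because they are read from the same locus as the members. The miR-675 hairpin lay in an exon of 3 of 7 annotated H19 transcripts, whereas the miR-483 hairpin was intronic in Igf2, in an exon of 0 of 9 transcripts. Mature sequences from RefSeq (GRCm38.p6) are given 5′ to 3′ with the seed, bases 2 to 8, in capitals. The 4 have 4 different seeds.
miR-675-3p: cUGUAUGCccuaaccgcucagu
miR-675-5p: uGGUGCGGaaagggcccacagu
miR-483-3p: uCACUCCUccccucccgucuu
miR-483-5p: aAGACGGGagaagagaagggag

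The DNA letters that pair with the miR-675-3p seed, GCATACA, occurred 2 times in the 3′ UTR of Igf1r transcript Igf1r-201, which is 7267 bases long. They occurred 0 times in the 3′ UTRs of Igf2r, Igf2 and Cdkn1c. In the 3′ UTR of Insr, the insulin receptor gene and not a member, they occurred 1 time, at position 3546 of 4747 bases. The 2 Igf1r matches start at positions 505 and 1264 of the UTR, counted from its first base, and are printed as they link a member to the RNA of another, with the match in capitals.
Igf1r site 1: ctcctcatcaccccGCATACAc
Igf1r site 2: accgtgaaacatttGCATACAc
The same 7 letters were present in 7.85% of 21092 annotated 3′ UTRs, whose median length was 955 bases, and in 33.9% of the 794 UTRs of 5000 bases or more. A match is a description of the sequence and not evidence of binding, and the levels of the mature microRNAs were not measured in this table.

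The starts of Igf2, Igf2r and Igf1r were searched on both strands for 3 core promoter motifs, overlaps being counted. These were the GC box (GGGCGG, or CCGCCC on the other strand), the TATA motif (TATAAA or TTTATA) and the CCAAT motif (CCAAT or ATTGG). Promoter windows from RefSeq run from 250 bases before to 50 bases after a start. Igf2 had 4 such windows and Igf2r and Igf1r had 1 each. H19 and Cdkn1c had no window in the source used here and were not searched. The 3 below are shown since these genes moved in the same direction between adult and neonatal libraries, and motifs found are in capitals. For Igf2 the window with most of these motifs is printed, chosen after the counts were seen.
Igf2, chr7:142657447-142657746, minus strand: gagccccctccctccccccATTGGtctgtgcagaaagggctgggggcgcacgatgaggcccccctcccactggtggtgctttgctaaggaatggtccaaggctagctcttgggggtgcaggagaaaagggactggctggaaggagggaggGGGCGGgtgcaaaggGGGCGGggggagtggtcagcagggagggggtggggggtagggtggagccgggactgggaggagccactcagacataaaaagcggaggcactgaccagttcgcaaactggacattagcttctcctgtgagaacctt
Igf2r, chr17:12769657-12769956, minus strand: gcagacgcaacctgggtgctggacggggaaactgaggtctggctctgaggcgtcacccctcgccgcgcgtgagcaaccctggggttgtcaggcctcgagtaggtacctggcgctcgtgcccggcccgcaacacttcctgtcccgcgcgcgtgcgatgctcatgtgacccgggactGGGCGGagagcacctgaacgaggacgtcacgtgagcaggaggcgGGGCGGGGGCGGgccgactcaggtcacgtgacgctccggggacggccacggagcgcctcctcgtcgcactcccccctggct
Igf1r, chr7:67952007-67952306, plus strand: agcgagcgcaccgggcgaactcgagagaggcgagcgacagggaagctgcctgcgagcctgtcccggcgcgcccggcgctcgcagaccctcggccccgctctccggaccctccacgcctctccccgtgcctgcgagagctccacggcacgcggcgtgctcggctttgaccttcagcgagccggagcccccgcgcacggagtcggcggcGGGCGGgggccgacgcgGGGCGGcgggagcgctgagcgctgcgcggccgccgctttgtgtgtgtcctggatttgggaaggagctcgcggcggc
The receptor windows were rich in G and C, at 70.7% for Igf2r and 76.0% for Igf1r, beside a median of 52.7% over 32851 windows. The Igf2 windows ran from 49.7% to 64.7%. GC boxes numbered 3 in the Igf2r window and 2 in the Igf1r window, and 35.7% of all windows held at least 1. The Igf2 window printed above held 2 GC boxes and 1 CCAAT motif, the latter present in 37.4% of all windows. Of the other 3 Igf2 windows, 1 held 1 GC box and the rest held none, and none held a CCAAT motif. TATAAA was in none of the 6 windows of Igf2, Igf2r and Igf1r and in 13.6% of all windows.

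Library facts that touch these genes come first. Estimated depth, recovered from the steps between RPKM values, ran from 6.3 to 17.2 in units of 1e+06 reads, and adult replicates 5 to 7 (16.8 to 17.2) were deeper than adult replicates 1 to 4 (6.3 to 11.1). All 10 cardiomyocyte markers were in the table, and their summed level ran from 15120 to 28840 RPKM in adult, from 5052 to 12290 RPKM in P1 and from 590.8 to 5097 RPKM in P3, with 5 of the 10 called lower at P1 and 10 at P3. Endothelial markers (9 of 13 used; Vwf, Flt1, Tek and Erg were not analysed here) summed to 2.74 to 215 RPKM in adult, 210.1 to 481 RPKM in P1 and 706 to 1668 RPKM in P3. Fibroblast markers (6 of 10 used; Pdgfra, Col1a1, Col1a2 and Tcf21 were not analysed here) summed to 4.80 to 81.2 RPKM in adult, 165 to 1414 RPKM in P1 and 381 to 812 RPKM in P3. Mural markers (4 of 8) summed to 31.8 to 120.3 RPKM in adult, 120.5 to 513 RPKM in P1 and 437 to 720 RPKM in P3. Immune, epicardial, erythroid and Schwann cell markers were not analysed here. P1 replicate 1 had the highest fibroblast sum and P3 replicate 1 the highest cardiomyocyte sum of the P3 libraries. In P3 replicates 3 and 4 the endothelial sum (1239 and 1668 RPKM) was above the cardiomyocyte sum (643 and 591 RPKM), against the labelled cell type. These were also the P3 libraries highest in H19 and Igf2. The share of RNA from cardiomyocytes was not measured, so the levels below are those of whole libraries.

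H19 showed the widest contrast. Its level at P1 was 367, 71.8, 46.9 and 194 RPKM in replicates 1 to 4, and at P3 it was 87.2, 118, 563 and 1003 RPKM in replicates 1 to 4. The 7 adult libraries lay between 0.127 and 0.766 RPKM with a median of 0.338 RPKM. The 8 neonatal libraries thus stood far above the adults with no overlap, whereas P1 and P3 overlapped. Means were 169.9 ± 146 RPKM at P1 (SD, n = 4), 443 ± 432 RPKM at P3 (SD, n = 4) and 0.406 ± 0.236 RPKM in adult (SD, n = 7), which is 419 times the adult mean at P1 and 1091 times at P3. The lowest neonatal library, P1 replicate 3, was 61.2 times the highest adult library. Among the genes of the table, H19 stood at a percentile of 0.7 to 13.2 in adult libraries and of 89.1 to 99.9 in neonatal ones.

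Igf2, the growth factor gene, followed the same shape over a narrower neonatal range. Its level at P1 was 107, 64.4, 58.6 and 89.3 RPKM in replicates 1 to 4, and at P3 it was 76.3, 85.8, 161 and 223 RPKM in replicates 1 to 4. Adults lay between 0.129 and 1.62 RPKM with a median of 0.302 RPKM. No adult library reached the neonatal range, and the 2 neonatal ages overlapped. Means were 79.8 ± 22.5 RPKM at P1 (SD, n = 4), 136 ± 68.9 RPKM at P3 (SD, n = 4) and 0.531 ± 0.530 RPKM in adult (SD, n = 7). Igf2 at P1 was 150.3 times the adult mean, at P3 it was 257 times, and the lowest neonatal library was 36.2 times the highest adult one.

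These adult values rest on few reads. Whole reads recovered from the table were 4 to 22 per adult library for H19 and 6 to 55 for Igf2, against 1203 to 23536 for H19 and 2979 to 10340 for Igf2 in neonatal libraries. For the highest adult H19 value, 11 reads, the exact Poisson 95% interval was 0.382 to 1.37 RPKM, and for the lowest, 5 reads, it was 0.0414 to 0.297 RPKM. These intervals cover counting error only. Adult levels of both genes are therefore imprecise between libraries, while every upper bound quoted here stayed below the lowest neonatal level.

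Igf2r, the clearance receptor, was the one member of appreciable level in adults. Its level at P1 was 43.0, 51.0, 63.0 and 74.0 RPKM in replicates 1 to 4, and at P3 it was 39.6, 57.4, 69.3 and 81.3 RPKM in replicates 1 to 4. Adults ran from 4.07 to 14.1 RPKM with a median of 6.72 RPKM, below every neonatal library. Means were 57.7 ± 13.6 RPKM at P1 (SD, n = 4), 61.9 ± 17.8 RPKM at P3 (SD, n = 4) and 8.23 ± 4.22 RPKM in adult (SD, n = 7), a ratio to adult of 7.01 at P1 and 7.52 at P3. The adults fell into 2 sets that did not overlap. Replicates 1 to 4 averaged 4.99 ± 1.19 RPKM (SD, n = 4) and the deeper replicates 5 to 7 averaged 12.6 ± 1.42 RPKM (SD, n = 3). Insr, not a member, split in the same way, at 3.63 to 6.65 RPKM in replicates 1 to 4 and 8.83 to 14.5 RPKM in 5 to 7. How many of all tested genes separate these sets was not counted, so the split is not read as a trait of the receptors. Taking only adult replicates 5 to 7 as the adult group, the log2 difference was 2.13 at P1 and 2.21 at P3, in place of 2.86 and 2.94.

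Igf1r, the signalling receptor, was the lowest of the 4 genes in neonatal libraries. Its level at P1 was 6.83, 11.3, 9.14 and 16.0 RPKM in replicates 1 to 4, and at P3 it was 8.92, 13.1, 10.0 and 8.45 RPKM in replicates 1 to 4. Adults ran from 0.203 to 0.954 RPKM with a median of 0.505 RPKM, so that neonatal and adult libraries did not overlap. Means were 10.8 ± 3.92 RPKM at P1 (SD, n = 4), 10.1 ± 2.07 RPKM at P3 (SD, n = 4) and 0.530 ± 0.248 RPKM in adult (SD, n = 7), which is 20.4 times adult at P1 and 19.1 times at P3. Adult values again split, with 0.366 ± 0.130 RPKM in replicates 1 to 4 (SD, n = 4) and 0.749 ± 0.183 RPKM in replicates 5 to 7 (SD, n = 3). Igf1r rested on 27 to 196 reads per adult library and 860 to 2162 per neonatal one.

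**Figure D1:**
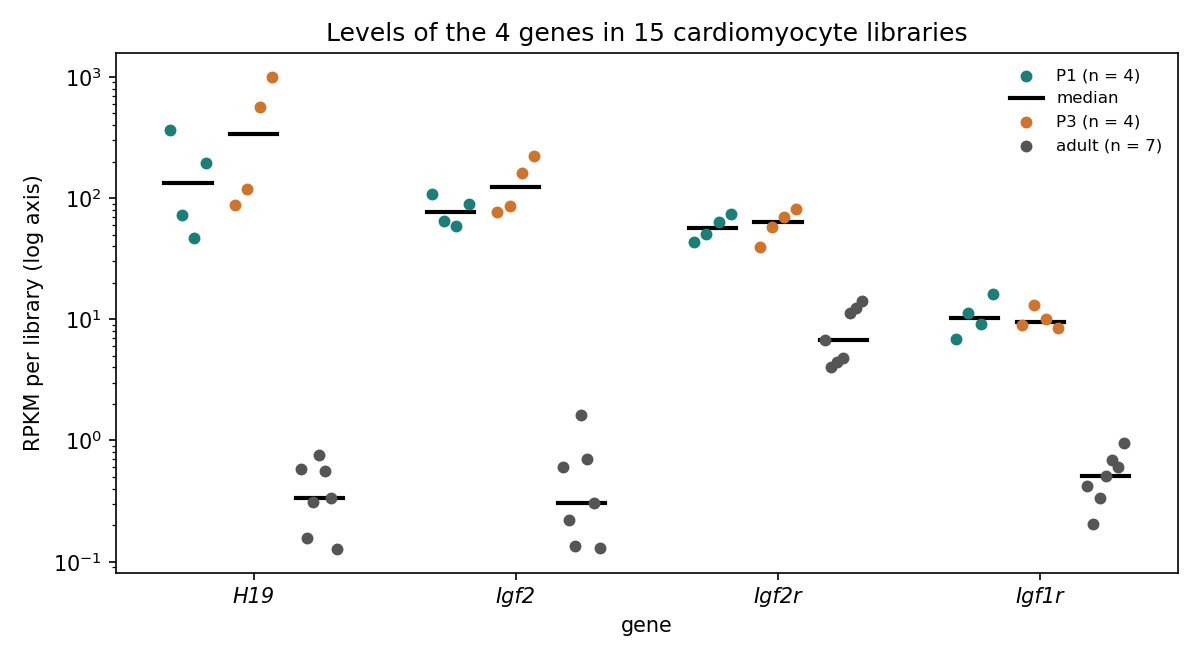
RPKM of H19, Igf2, Igf2r and Igf1r in each library on a log axis, with points for libraries (P1 and P3, n = 4 each; adult, n = 7) and bars for group medians. Every neonatal point lies above every adult point of the same gene, by 61.2 times for H19 and 2.81 times for Igf2r at the nearest pair, and the P1 and P3 points overlap for all 4 genes.

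Ordered by level, the neonatal medians were H19, Igf2, Igf2r and Igf1r at both ages: 133, 76.8, 57.0 and 10.2 RPKM at P1 and 340.2, 123, 63.4 and 9.47 RPKM at P3. Genes next to each other in that order, H19 and Igf2 as well as Igf2 and Igf2r, had overlapping ranges at each age, while Igf1r lay below the others. Within the same library at P3, H19 exceeded Igf2 by 1.14 to 4.50 times and Igf2 exceeded Igf2r by 1.49 to 2.74 times in all 4, whereas at P1 both ratios fell on either side of 1 (0.799 to 3.43 and 0.931 to 2.49). In adult the order was Igf2r first, with Igf1r, H19 and Igf2 overlapping far below it. Igf2r stood at 4.39 to 9.62 times Igf1r in neonatal libraries and at 9.39 to 20.5 times Igf1r in adults. Igf2 stood at 0.931 to 2.74 times Igf2r in neonatal libraries and at 0.00913 to 0.341 times in adults. Transcripts of the ligand were thus as abundant as those of its clearance receptor, or more so, in 7 of 8 neonatal libraries and in 0 of 7 adults.

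The members' differences were then set against all genes, as differences in mean log2(RPKM + 0.5), a scale that understates the change of genes near 0. H19 was 7.15 higher at P1 (SE 0.58) and 8.30 higher at P3 (SE 0.58) than in adult, which ranked it 2 and 1 from the top of 9389 genes. Igf2 was 6.37 higher at P1 and 7.05 higher at P3 (SE 0.34 for each), at ranks 6 and 8. Igf1r, at 3.43 and 3.38 (SE 0.23 for each), held ranks 298 and 605. Igf2r, at 2.86 and 2.94 (SE 0.32 for each), held ranks 693 and 1070. The 2 transcripts of the shared domain thus stood at the edge of the distribution and the receptors within its upper part. Most genes were higher in neonatal libraries on the deposited scale, where the median gene was 1.36 higher at P1 and 1.48 higher at P3. Relative to that gene, H19 was 5.79 and 6.82 higher, Igf2 5.01 and 5.57, Igf1r 2.06 and 1.90, and Igf2r 1.49 and 1.46.

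**Figure D2:**
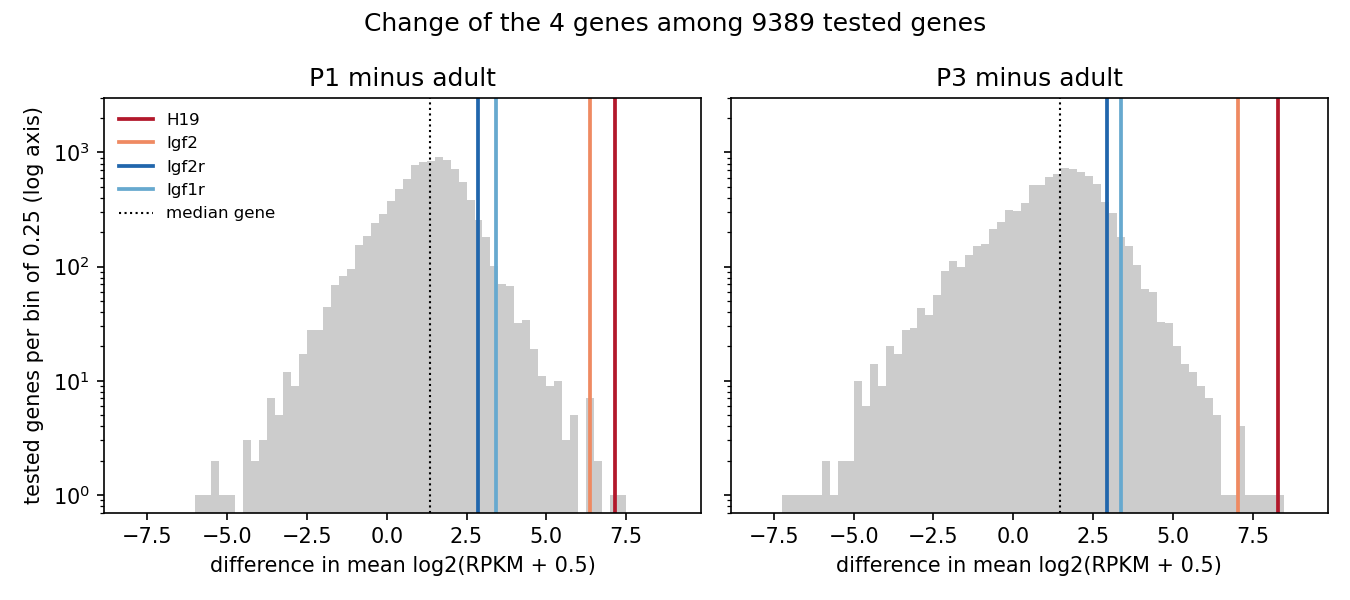
Histograms of the difference in mean log2(RPKM + 0.5) from adult for all 9389 tested genes at P1 (left) and P3 (right), in bins of 0.25 with a log count axis. Solid lines mark the 4 members and the dotted line the median gene (1.36 and 1.48); H19 and Igf2 lie at the right edge and the receptors nearer the bulk.

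All 4 members lay wholly above adult at both ages. Of all tested genes, 70% did not overlap between P1 and adult and 72.3% did not overlap between P3 and adult, and 62.7% were called higher at P1 and 62.7% at P3. A call means a limma adjusted p under 0.05 and a log2 difference of at least 1. The members' count is given without a test and nothing is read from it. The deposited scale sets much of that background: after median-of-ratios scaling the median gene was 0.06 higher at P1 and 0.09 higher at P3. Under that scaling H19 was 6.06 and 7.12 higher than in adult, Igf2 5.29 and 5.88, Igf1r 2.32 and 2.19, and Igf2r 1.37 and 1.36. All 4 kept their direction under each of the 4 other scalings tried.

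Between P3 and P1, the comparison that did not choose the genes, no member was called. H19 was 1.15 higher at P3 (SE 0.66, 95% interval -0.29 to 2.58, limma adjusted p = 0.268), and Igf2 was 0.67 higher (SE 0.38, 95% interval -0.16 to 1.50, limma adjusted p = 0.261). Igf2r differed by 0.08 (95% interval -0.71 to 0.87, limma adjusted p = 0.902) and Igf1r by -0.05 (95% interval -0.61 to 0.52, limma adjusted p = 0.921). Intervals this wide leave a difference of more than 2-fold in H19 or Igf2 possible. Two-sided exact permutation tests over the 70 splits of 4 against 4 gave p = 0.31 for H19, 0.2 for Igf2, 0.74 for Igf2r and 0.89 for Igf1r, where the smallest possible p is 0.029. In this comparison 1.4% of tested genes were called higher and 5.31% lower, and 13.2% did not overlap, against 0 of the 4 members.

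The H19 result depended on the libraries that stood apart in their markers. Without P1 replicate 1 and P3 replicate 1, a choice made after seeing the data, H19 was 2.22 higher at P3 than at P1 (SE 0.60, limma adjusted p = 0.0119) and past the call threshold. Igf2 was then 1.06 higher (SE 0.42, limma adjusted p = 0.0728) and not called. P1 replicate 1 was also the P1 library highest in H19 and Igf2, and P3 replicate 1 was the P3 library lowest in both. Leaving out these libraries could therefore only raise the P3 minus P1 difference of H19 and Igf2, and nothing is read from that call. With either library left out alone, H19 was not called. Over 18 alternatives the limma adjusted p ran from 0.0119 to 0.626 for H19, called in 1, and from 0.0728 to 0.558 for Igf2, called in 0.

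H19 and Igf2 varied together from library to library. Over the 8 neonatal libraries the order of the 2 genes was identical (Spearman's rho = 1.0, permutation p = 5e-05, the smallest value the permutations can give, adjusted p = 0.0022), with Pearson's r = 0.97 on the log2 scale (permutation p = 5e-05, adjusted p = 0.0022). Without the 2 libraries farthest from the H19 median, r stayed at 0.97. In both ages the libraries kept that order, from P1 replicate 3 up through 2, 4 and 1, and from P3 replicate 1 up through 2, 3 and 4; groups of 4 are too small for a correlation of their own. Among the 9388 other tested genes, Igf2 ranked 2 by r with H19, behind Igfbp4 (r = 0.98), and 4 genes including Igf2 had exactly the order of H19. Over the 7 adults r was 0.90 (permutation p = 0.004, adjusted p = 0.031) and rho was 0.93 (permutation p = 0.0067, adjusted p = 0.059), and without the 2 farthest libraries r was 0.85. In all, 44 relations were computed, among members and between members and marker sums, and p-values were adjusted over them. Those over the 8 neonatal libraries pooled P1 and P3.

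H19 nevertheless varied more than Igf2. The highest neonatal library exceeded the lowest by 7.82 times in P1 and 11.5 times in P3 for H19, against 1.82 and 2.92 times for Igf2. The ratio of H19 to Igf2 was 3.43, 1.12, 0.799 and 2.18 in P1 replicates 1 to 4 and 1.14, 1.37, 3.50 and 4.50 in P3 replicates 1 to 4, and it ran from 0.473 to 2.31 in adults. The 3 groups overlapped in this ratio. At each neonatal age it was higher in libraries with more H19, its numerator, but not in adults, where replicate 4 had the most H19 and the lowest ratio.

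Endothelial markers moved with both transcripts. The neonatal permutations pooled P1 and P3. Endothelial sums did not overlap between these ages (210.1 to 481 RPKM at P1, 706 to 1668 RPKM at P3). The neonatal p-values therefore do not separate a difference between the ages from variation between libraries of the same age. Over the 8 neonatal libraries the summed endothelial markers had r = 0.86 with Igf2 (permutation p = 0.0049, adjusted p = 0.031; rho = 0.79, permutation p = 0.028, adjusted p = 0.14; r = 0.70 without the 2 farthest) and r = 0.78 with H19 (permutation p = 0.025, adjusted p = 0.11; rho = 0.79, permutation p = 0.028, adjusted p = 0.14; r = 0.48 without the 2 farthest). In this paragraph the 2 farthest libraries are those farthest from the median of the marker sum. The H19 relation did not pass the correction, and its r was lower without those 2 libraries. Groups of 4 are too small for a correlation, so only the order within each age is given. At P3 the endothelial sums rose from replicate 1 through 2 and 3 to 4, as did H19 and Igf2. At P1 they rose from replicate 3 through 2 and 1 to 4, and both genes from 3 through 2 and 4 to 1. Over the 7 adults the endothelial sum had r = 0.91 with H19 (permutation p = 0.002, adjusted p = 0.031; rho = 0.96, permutation p = 0.0028, adjusted p = 0.041; r = 0.85 without the 2 farthest). With Igf2 it had r = 0.85 over the same adults (permutation p = 0.0044, adjusted p = 0.031; rho = 0.96, permutation p = 0.0028, adjusted p = 0.041; r = 0.90 without the 2 farthest). The cardiomyocyte sum ran the other way over the neonatal libraries, with r = -0.80 for Igf2 (permutation p = 0.028, adjusted p = 0.11; rho = -0.69, permutation p = 0.069, adjusted p = 0.23; r = -0.32 without the 2 farthest) and r = -0.69 for H19 (permutation p = 0.067, adjusted p = 0.21; rho = -0.69, permutation p = 0.069, adjusted p = 0.23; r = -0.11 without the 2 farthest), neither past the correction. Fibroblast markers had r = 0.62 with H19 over the neonatal libraries (permutation p = 0.11, adjusted p = 0.32; rho = 0.62, permutation p = 0.11, adjusted p = 0.30; r = 0.54 without the 2 farthest) and r = 0.90 in adults (permutation p = 0.0036, adjusted p = 0.031; rho = 0.89, permutation p = 0.012, adjusted p = 0.088; r = 0.78 without the 2 farthest). In adults the cardiomyocyte sum was instead positive, with r = 0.73 for Igf2 (permutation p = 0.067, adjusted p = 0.21, r = 0.10 without the 2 farthest). For H19 it had r = 0.53 (permutation p = 0.21, adjusted p = 0.40, r = 0.13 without the 2 farthest). Neither passed the correction. Adult replicate 4 had the highest endothelial, fibroblast and cardiomyocyte sums of the adults and their highest RPKM sum (280112). Neither set of adults holds enough libraries for a correlation within it.

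A pair of libraries with near-equal endothelial sums, chosen after the values were seen, is given as an example. P1 replicate 3 had an endothelial sum of 210.1 RPKM and a mural sum of 120.5 RPKM, close to the 215 RPKM and 108.9 RPKM of adult replicate 4, and held 46.9 RPKM of H19 against 0.766 RPKM. For Igf2 the same 2 libraries held 58.6 and 1.62 RPKM. Their fibroblast sums differed, at 200.5 RPKM in P1 replicate 3 and 81.2 RPKM in adult replicate 4, as did their cardiomyocyte sums, at 8332 and 28839 RPKM. The part of other cell types in the levels of the members was not tested, and in bulk libraries fewer cells of a type and less RNA per cell cannot be told apart. No relation of Igf2r or Igf1r with a marker sum passed the correction over the neonatal libraries.

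**Figure D3:**
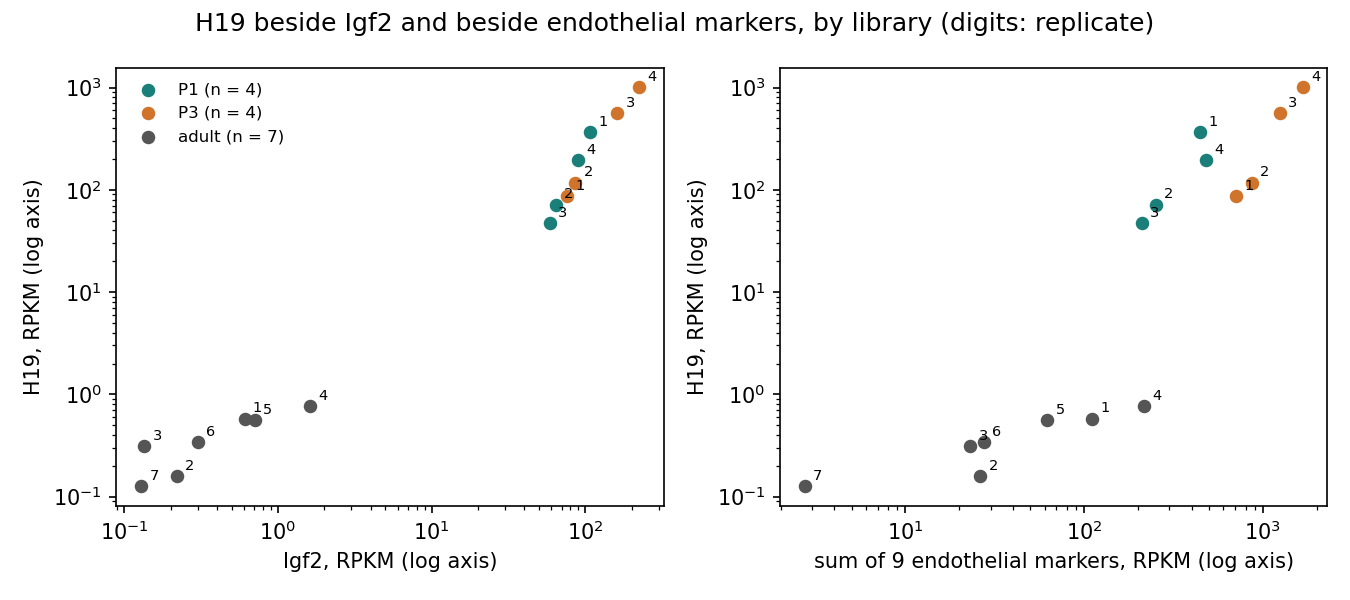
H19 level against Igf2 level (left) and against the sum of 9 endothelial markers (right), all in RPKM on log axes, 1 point per library with its replicate number. The 8 neonatal points lie in the same order for H19 and Igf2. P1 replicate 3 and adult replicate 4, a pair chosen after the values were seen, have endothelial sums of 210.1 and 215 RPKM. H19 was at 46.9 and 0.766 RPKM in them. Their fibroblast sums (200.5 and 81.2 RPKM) and cardiomyocyte sums (8332 and 28839 RPKM) differ, and the part of other cell types was not tested.

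Likeness over all 15 libraries was measured as the root mean square difference in log2 level after centring each gene. Nearest to H19 were Igf2 (0.84), Fn1 (0.94), Tagln (1.05), Postn (1.17) and Ctgf (1.30), genes of extracellular matrix and smooth muscle apart from Igf2. Nearest to Igf2 were Fn1 (0.57), Flna (0.65), Vat1 (0.66), Tagln (0.67) and Actn1 (0.74), and H19 ranked 15 for it. The receptors had closer companions: Srrm2 (0.26), Dusp11 (0.27), Cic (0.29), Kdm5c (0.29) and Polr2a (0.30) for Igf2r, and Prkci (0.22), Mical2 (0.25), Lrrfip1 (0.26), Adam9 (0.26) and Wwc2 (0.28) for Igf1r. Igf2r and Igf1r were 0.47 from each other. This measure uses the difference between adult and neonatal libraries for which the members were chosen, so it describes them and supports nothing.

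Around H19, the genes of the table other than Igf2 differed less from adult than H19 did. Of 56 annotated genes whose start lies within 500 kb of the H19 start, 8 were in the table. Mrpl23, a mitochondrial ribosomal protein gene at -45.5 kb from that start, was at 36.9 RPKM in P1, 24.7 RPKM in P3 and 42.7 RPKM in adult, with log2 differences from adult of -0.09 and -0.69 that were called after median-of-ratios scaling (-1.62 and -2.30). Lsp1, encoding a leukocyte-specific actin-binding protein, was lower at both ages, by -1.02 (limma adjusted p = 0.0257) and -1.11 (limma adjusted p = 0.0153), and neither call held without adult replicate 4 (-0.79 and -0.88) or adult replicate 7 (-0.87 and -0.97). The P1 call was also lost without any 1 of P1 replicates 2 to 4 (-0.93 to -0.79) and the P3 call without P3 replicate 2 (limma adjusted p = 0.0483, with a difference just short of the threshold). Beside that, 4.32% of tested genes were called lower at P1 and 9.16% at P3. After median-of-ratios scaling Lsp1 was called lower at both ages, with differences of -2.13 and -2.27. Ctsd, the lysosomal protease cathepsin D, differed by 0.48 and 0.51 and was not called (-1.07 and -1.12 after median-of-ratios scaling, both called). Dusp8, a MAP kinase phosphatase, was 1.23 higher at P1 (limma adjusted p = 0.00126; -0.15 after median-of-ratios scaling) and 0.57 higher at P3, where it was not called. Beyond Igf2, the tetraspanin Cd81 was 1.98 and 1.35 higher (-0.27 at P3 after median-of-ratios scaling), and Tssc4 2.75 and 2.23 higher (0.77 at P3 after median-of-ratios scaling, not called). At each age the largest difference of these neighbours other than Igf2 was below that of Igf2 by more than 3 log2 units on the deposited scale. H19 and Igf2 were chosen with their difference from adult known, so nothing is read from their place above the neighbours.

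The window around Cdkn1c held 8 genes in the table of 44 annotated. Kcnq1, an imprinted potassium channel gene, was 1.72 lower at P3 than in adult (a log2 difference of -1.72, limma adjusted p = 4.22e-05) and differed by -0.63 at P1, not called. Under the 4 other scalings Kcnq1 was called lower at P1 too, by -1.98 with median-of-ratios scaling and -1.23 with equal RPKM sums. Cars, a cysteine tRNA synthetase gene, was 3.17 and 4.20 higher than in adult and 1.03 higher at P3 than at P1 (limma adjusted p = 0.0279), the last not called when any 1 of P1 replicates 2 to 4 or P3 replicates 2 to 4 was left out (0.88 to 1.16). Osbpl5, a lipid transfer protein gene, was 3.16 and 3.26 higher, and Dhcr7, a cholesterol synthesis gene, 2.32 and 2.44 higher. Nap1l4, a nucleosome assembly gene, differed by 0.76 and 0.59 and was not called (-0.77 and -1.02 after median-of-ratios scaling, called lower at P3), and Nadsyn1 was below the filter.

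**Figure D4:**
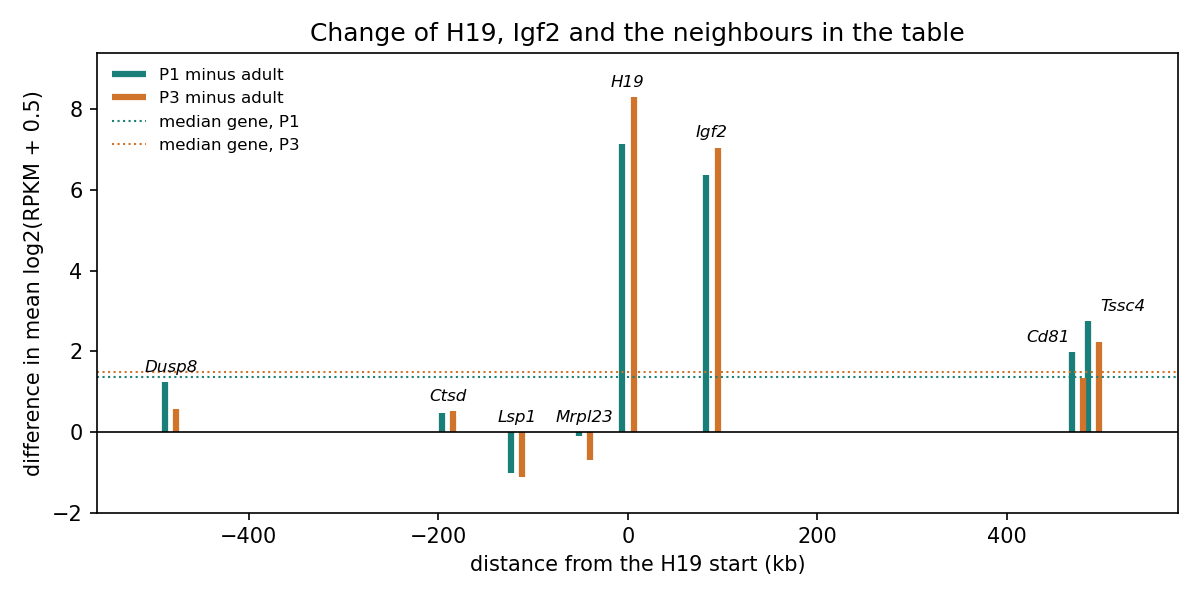
Difference in mean log2(RPKM + 0.5) from adult at P1 and P3 for the 8 genes of the table whose start lies within 500 kb of the H19 start, by distance in kb; dotted lines mark the median gene. H19 (7.15 and 8.30) and Igf2 (6.37 and 7.05), chosen with this difference known, stand above the other 6 genes, which run from -1.11 to 2.75.

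Among the IGF ligands and receptors the insulin receptor, Insr, was the only other gene in the table, and it did not follow the members. Insr stood at 5.96, 16.2, 18.5 and 20.4 RPKM in P1 replicates 1 to 4, at 9.16, 4.72, 5.49 and 5.90 RPKM in P3 replicates 1 to 4, and at 3.63 to 14.5 RPKM in adult with a median of 6.65 RPKM. The 3 groups overlapped, and P1 replicate 1, the library high in fibroblast markers, was far below the other P1 libraries. Log2 differences were 0.97 for P1 and -0.15 for P3 against adult and -1.12 for P3 against P1 (limma adjusted p = 0.0770), none called on the deposited scale. Against adult, Insr was called lower at P3 under 3 of the 4 other scalings, by -1.63 with quantile normalization (limma adjusted p = 0.000288), -1.65 with median-of-ratios scaling (limma adjusted p = 0.000241) and -1.07 with equal sums leaving out the 100 highest genes (limma adjusted p = 0.0148). Without P1 replicate 1 and P3 replicate 1, a choice made after seeing the data, Insr differed by -1.68 between P3 and P1 (limma adjusted p = 0.0034). These were the lowest P1 library (5.96 RPKM) and the highest P3 library (9.16 RPKM) for Insr. Leaving them out could only widen the difference, and nothing is read from that call. Over 18 alternatives, this choice included, Insr was called in 4 (limma adjusted p 0.0034 to 0.208). The ratio of Igf1r to Insr was 0.493 to 1.15 at P1, 0.974 to 2.76 at P3 and 0.0519 to 0.139 in adult.

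Genes that work beside the members were counted from lists written from textbook knowledge. Over the 8 lists of IGF signalling, mannose 6-phosphate sorting and CDK inhibitors, 50 genes other than members were tested. At P1, 36 were called higher and 1 lower than in adult, and at P3 35 were higher and 1 lower, with median differences of 1.40 and 1.55 beside 1.36 and 1.48 for all genes. These shares are near the 62.7% called higher among all genes, and they depend on the scale: after median-of-ratios scaling 9 were higher and 6 lower at P1 and 13 higher and 10 lower at P3. Over all 9389 tested genes that scaling gave 1562 higher and 1856 lower at P1, and 2141 higher and 2335 lower at P3. The counts of each list below under that scaling stand beside these. Between P3 and P1, 1 was higher and 1 lower.

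Binding proteins, which hold IGFs in the extracellular fluid, were higher at both ages in 3 of 3 tested genes, beside 62.7% of all genes. The list held 8 genes. Igfbp7 was 4.01 higher at P1 and 4.88 higher at P3 than in adult, Igfbp4 2.96 and 3.72 higher, and Igfbp5 2.58 and 3.81 higher. After median-of-ratios scaling all 3 stayed called, at 2.54 and 3.32 for Igfbp7, 1.73 and 2.39 for Igfbp4, and 1.20 and 2.32 for Igfbp5. With quantile normalization Igfbp5 was 1.16 higher at P1 and not called (limma adjusted p = 0.062). Igfbp7, the most abundant, stood at 193 ± 169 RPKM at P1 (SD, n = 4), 280.3 ± 32.4 RPKM at P3 (SD, n = 4) and 20.1 ± 29.1 RPKM in adult (SD, n = 7). None was called between P3 and P1. Endothelial and fibroblast marker sums were higher in neonatal libraries too, and their part in these differences was not tested. Of the 2 proteases and inhibitors tested, Htra1, a protease of IGF binding proteins, was 1.48 higher at P1 and 0.89 higher at P3, where it was not called; under median-of-ratios scaling its differences were -0.03 and -0.70. Among RNA regulators, Igf2bp2, which binds Igf2 mRNA, was 4.44 and 4.35 higher, at 20.9 ± 6.28 RPKM (SD, n = 4), 19.2 ± 3.50 RPKM (SD, n = 4) and 0.487 ± 0.265 RPKM (SD, n = 7) in P1, P3 and adult. Hmga1, a chromatin protein, was 2.56 and 3.06 higher.

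Substrates and adaptors that act below the receptors were mixed. Of 11 tested, 7 were higher and 1 lower at P1, and 8 were higher and 1 lower at P3, beside 62.7% of all genes called higher. After median-of-ratios scaling 2 were higher and 2 lower at P1, and 4 higher and 3 lower at P3. Shc1, which links receptors to the Ras pathway, was 2.95 and 3.52 higher. Grb10, an imprinted inhibitor of insulin and IGF receptors, was 2.90 and 2.60 higher, at 61.1 ± 9.52 RPKM in P1 (SD, n = 4), 49.0 ± 2.12 RPKM in P3 (SD, n = 4) and 8.09 ± 2.76 RPKM in adult (SD, n = 7). Its relative Grb14 went the other way: it was at 9.11 ± 3.57 RPKM in P1 (SD, n = 4), 3.56 ± 2.69 RPKM in P3 (SD, n = 4) and 31.8 ± 5.77 RPKM in adult (SD, n = 7), log2 differences of -1.82 and -3.16 from adult. Grb14 was also lower at P3 than at P1, by -1.34 (SE 0.34, limma adjusted p = 0.0253), a call that was lost when any 1 of P1 replicates 2 to 4 or P3 replicates 2 to 4 was left out (differences of -1.36 to -1.17, limma adjusted p over 18 alternatives 1.26e-05 to 0.114). Both Grb10 and Grb14 kept direction and call against adult under each of the 4 other scalings.

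In the PI3K-AKT branch, which carries the growth signal onward, 11 of 17 tested genes were higher and 0 lower at each age, a share near that of all genes (62.7%). After median-of-ratios scaling 1 was higher and 3 lower at P1, and 1 higher and 4 lower at P3. Pik3cb, a catalytic subunit of PI3K, was 2.28 and 2.18 higher, and Pdpk1, the kinase that activates AKT, 2.04 and 1.77 higher; after median-of-ratios scaling neither was called (0.98 and 0.81 for Pik3cb, 0.64 and 0.30 for Pdpk1). Akt1, the most abundant, was 1.42 and 1.55 higher on the deposited scale and differed by -0.11 and -0.06 after median-of-ratios scaling. Foxo1, a transcription factor that AKT inhibits, was 1.12 higher at P3 than at P1 (SE 0.29, limma adjusted p = 0.0255), at 3.83 ± 0.578 and 9.24 ± 3.21 RPKM (SD, n = 4 each). After median-of-ratios scaling Foxo1 was 0.99 higher and not called, and the call was also lost when any 1 of P1 replicates 2 to 4 or P3 replicates 2 to 4 was left out (differences of 0.93 to 1.20, limma adjusted p over 18 alternatives 0.00447 to 0.118).

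Genes that share the sorting function of Igf2r were higher in 9 of 10 cases at both ages, beside 62.7% of all genes. With median-of-ratios scaling 0 of the 10 were called at P1 and 2 were higher at P3, and with quantile normalization 0 and 1. M6pr, the other mannose 6-phosphate receptor, stood at 38.7 ± 5.08 RPKM in P1 (SD, n = 4), 59.9 ± 7.56 RPKM in P3 (SD, n = 4) and 7.71 ± 2.16 RPKM in adult (SD, n = 7), 2.28 and 2.91 higher than in adult, beside 2.86 and 2.94 for Igf2r; after median-of-ratios scaling M6pr was 0.79 higher at P1, not called, and 1.32 higher at P3. Vps29 and Vps35, subunits of the retromer that returns these receptors to the Golgi, were 2.19 and 1.77 higher at P1, and 0.70 and 0.25 after median-of-ratios scaling, where neither was called. Among CDK inhibitors, the family of Cdkn1c, 3 of 4 were higher at P1 and 2 of 4 at P3, and after median-of-ratios scaling 1 was higher and 1 lower at P1 and 1 higher and 2 lower at P3. Cdkn1a, the inhibitor p21, was 5.33 and 4.42 higher, at 187 ± 42.9 RPKM in P1 (SD, n = 4), 116 ± 68.1 RPKM in P3 (SD, n = 4) and 4.85 ± 3.06 RPKM in adult (SD, n = 7). Cdkn1b was 1.03 and 1.23 higher, and it differed by -0.38 and -0.26 after median-of-ratios scaling. At P1 it fell under the call threshold without P1 replicate 1 (0.90), adult replicate 1 (0.98) or adult replicate 2 (0.88).

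Other imprinted genes did not move as a block. Of 59 listed, 30 were in the table and tested, 27 of them not members. At P1, 14 of the 27 were higher and 2 lower than in adult, and at P3 13 were higher and 3 lower, with medians of 1.44 and 0.93 beside 1.36 and 1.48 for all genes. Over all tested genes 62.7% were called higher at each age, and 4.32% lower at P1 and 9.16% at P3. After median-of-ratios scaling the counts were 6 higher and 5 lower at P1 and 7 higher and 8 lower at P3. The highest of the 27 at P1 were Ndn, a growth suppressor (4.49), Slc38a4, an amino acid transporter (4.06), and Dcn, a matrix proteoglycan that is also a fibroblast marker (3.13). At P3 they were Ndn (4.74), Dcn (4.58) and Sgce, a sarcoglycan gene (3.40). At both ages all were below H19 and Igf2, which were chosen with their difference from adult known, so nothing is read from that order. After median-of-ratios scaling Dcn was not called at P1 (1.66, limma adjusted p = 0.102). Snrpn and Snurf, read from 1 shared transcript, were lower, with differences of -1.14 and -1.91 for Snrpn. At P1 Snrpn was not called without P1 replicate 1 (-0.99). After median-of-ratios scaling Snrpn was called lower at both ages, with differences of -2.53 and -3.28. Ddc was the 1 imprinted gene called between P3 and P1, where it was lower by -1.67 (SE 0.31, limma adjusted p = 0.0076), a call made in 18 of 18 alternatives (limma adjusted p 9.4e-06 to 0.0475). Without P1 replicate 1 and P3 replicate 1, 5 of the 27 were called lower and 0 higher at P3 than at P1. Over all genes that choice, made after seeing the data, gave 499 higher and 1090 lower, against 131 higher and 499 lower with every library. H19, a member and so outside the 27, was called higher under it.

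Airn, the antisense RNA over Igf2r, was 1.76 and 1.78 higher than in adult (0.70 and 0.66 after median-of-ratios scaling, not called), at 3.20 ± 0.917 RPKM in P1 (SD, n = 4), 3.36 ± 1.30 RPKM in P3 (SD, n = 4) and 0.599 ± 0.306 RPKM in adult (SD, n = 7). Airn overlaps Igf2r, and Igf2os overlaps Igf2, on the opposite strand. Whether reads were counted by strand is not given in the sources used here. Reads of these pairs cannot be told apart. Genes that maintain imprints or shape chromatin at them were higher in 13 of 13 cases at both ages on the deposited scale. The share of all genes called higher was 62.7% at each age. Among the 13 were Trim28 (3.25 and 3.58), Dnmt1 (3.06 and 3.19), Stag1 (2.40 and 2.97) and Ctcf (1.82 and 2.08). After median-of-ratios scaling 3 of the 13 were higher at P1 and 6 at P3, beside 1562 and 2141 of all 9389 tested genes.

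**Figure D5:**
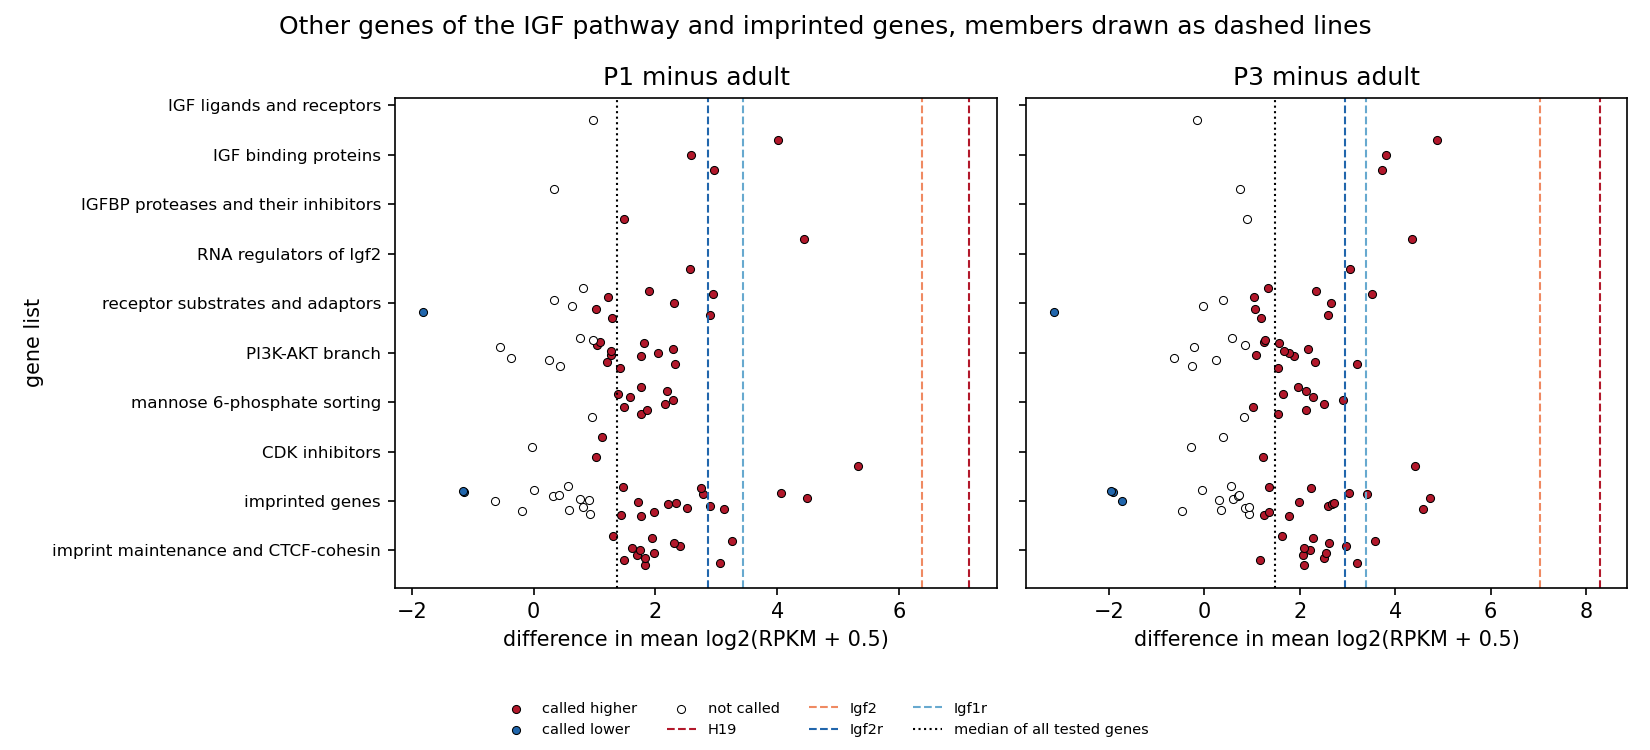
Difference in mean log2(RPKM + 0.5) from adult at P1 (left) and P3 (right), with 1 point per tested gene of each list other than the members, filled where called. Dashed lines mark the members and the dotted line the median of all tested genes. No point reaches the line of Igf2, a gene chosen with this difference known, and the imprinted genes spread from -1.16 to 4.49 at P1.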

How the data were processed

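Total RNA was extracted with TRIzol and made into Illumina libraries, per the labels' protocols. The authors deposited 1 table of RPKM for 4 P1, 4 P3 and 7 adult libraries, and each of its 15 columns entered the analysis. HISAT2, Partek 6.6 and mm10 are listed in the submitters' processing notes. Which annotation and strand setting served for counting was not given in the sources used here.

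The test used limma 3.58.1 (R 4.3.3, eBayes with trend) on log2(RPKM + 0.5), for genes that reached 1 RPKM in 4 or more of the 15 libraries, with 1 coefficient per group, two-sided, and Benjamini-Hochberg adjustment over all 9389 genes. A call needed an adjusted p under 0.05 and an absolute log2 difference of at least 1. The procedure was tested on simulated data. Single levels were compared by exact permutation tests in scipy 1.17.1. RPKM steps gave whole reads for 8358 genes (86.5%; relative tolerance 3e-05), and for 0.0% of genes once each value was perturbed by up to 1 percent. RPKM sums ran from 145050 to 321035.

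Positions and 3′ UTRs come from GENCODE M21, other sequences from RefSeq GRCm38.p6. Named genes are the members, up to 3 called genes with the largest change in each direction per list with its most abundant gene, genes within 500 kb of H19 or Cdkn1c, and the 5 most alike. A gene that this rule names is not reported here. Airn, Ctcf and the rank of Igfbp4 were added after their values were seen. Alternatives were 4 scalings, 2 pseudocounts, no filter, only the groups compared, a replicate block, each library left out, and each set of adults. Members and lists were chosen with earlier results of these data known.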

Additional observations from a re-analysis of the deposited data

Results flagged for a closer look

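Igf2 in adult replicate 4 stood apart from the other 6 adult libraries. It was 1.6185 RPKM there, and its gap to the next adult library was 0.612 of the range of the group, where the 95% critical value of Dixon's test for 7 samples is 0.568. The value rests on 46 reads, with an exact Poisson 95% interval of 1.19 to 2.16 RPKM. The same library had the lowest estimated depth (6.3 in units of 1e+06 reads) and the highest endothelial (215 RPKM), fibroblast (81.2 RPKM) and cardiomyocyte (28839 RPKM) marker sums of the adults, and their part in the value was not tested. Chance flags about 1 in 20 groups, and 12 groups of values were examined.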

How the results depend on the processing

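Of the members' differences from adult, every one kept its direction under every alternative run, while sizes moved most with the scale. Quantile normalization gave 5.42 for Igf2, 1.56 for Igf2r and 2.31 for Igf1r at P1 and 6.31, 1.76 and 2.14 at P3. Median-of-ratios scaling gave 6.06 for H19, 5.29 for Igf2, 1.37 for Igf2r and 2.32 for Igf1r at P1, and 5.88 for Igf2, 1.36 for Igf2r and 2.19 for Igf1r at P3. With equal RPKM sums Igf2r was 2.18 higher at P1 and Igf1r 2.92 and 2.99 higher. With equal sums leaving out the 100 highest genes the values were 5.68 for Igf2, 1.88 for Igf2r and 2.70 for Igf1r at P1 and 1.98 for Igf2r and 2.68 for Igf1r at P3. A pseudocount of 0.1 gave 7.31 and 7.98 for Igf2 and 4.15 and 4.10 for Igf1r, and a pseudocount of 1 gave 5.74 for Igf2 at P1 and 2.91 and 2.86 for Igf1r. Against adult replicates 5 to 7 only, Igf2r was 2.13 and 2.21 higher. Between P3 and P1 the sign of the small differences turned for Igf2r under median-of-ratios scaling (-0.00; -0.01 relative to the library median) and for Igf1r with equal RPKM sums (0.08), none called. Leaving out 1 library at a time, the P3 minus P1 value ran from 0.53 to 1.70 for H19, 0.39 to 0.90 for Igf2, -0.07 to 0.28 for Igf2r and -0.24 to 0.16 for Igf1r. Without P1 replicate 1 and P3 replicate 1, added after seeing the data, H19 was 2.22 higher.

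Counts of pathway genes other than members also moved with the scale. At P1, quantile normalization left 8 higher and 5 lower, median-of-ratios scaling 9 and 6, and there were 22 and 3 with equal RPKM sums, and 18 and 3 without the 100 highest genes. At P3 the counts were 11 and 9, 13 and 10, 2 lower with equal sums, and 18 and 5. Against adult replicates 5 to 7 only, 2 were lower at P1 and 3 at P3. Between P3 and P1, where the counts are 1 higher and 1 lower, median-of-ratios scaling gave 0 higher, quantile normalization 2 lower, a fit of only the groups compared 0 lower, and the added choice 2 higher and 3 lower. Imprinted genes numbered 7 higher and 6 lower at P1 when quantiles were equalised, 6 and 5 under median-of-ratios scaling, and 4 lower once the 100 highest genes were left out of the sums. At P3 they numbered 7 and 7, and 7 and 8. Between P3 and P1, 2 were lower under both of these scalings and 5 under the added choice, which left 1 lower at P1 against adult. Over all genes the added choice gave 499 higher and 1090 lower between P3 and P1. Imprint maintenance genes called higher numbered 2, 3 and 6 at P1 under quantile, median-of-ratios and equal sums without the 100 highest genes, and 5 and 6 at P3 under the first pair. Leaving out 1 library at a time, pathway genes called between P3 and P1 ran from 0 to 2 in each direction, and imprinted genes lower ran from 1 to 5 there and from 1 to 2 at P1 against adult.

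Of single genes called, signs turned under 2 scalings. At P1, quantile normalization and median-of-ratios scaling gave -0.43 and -0.38 for Cdkn1b, -0.31 and -0.32 for Cdkn2d, -0.17 and -0.15 for Dusp8, and -0.16 and -0.04 for Foxo1, and the latter scaling gave -0.11 for Akt1 and -0.03 for Htra1. At P3 both gave -0.31 and -0.26 for Cdkn1b, and the latter gave -0.06 for Akt1 and -0.27 for Cd81.

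With the replicate number as a block, 0 pathway genes were called in either direction between P3 and P1, and over all genes 76 were higher and 107 lower, against 131 and 499 without the replicate block. Same-numbered P1 and P3 libraries had deviations correlated at -0.506, -0.047, -0.252 and 0.371. Differently numbered libraries were not compared, so whether the numbers pair the samples stays unknown. Depth limits the adult values of H19 and Igf2, read from 4 to 22 and 6 to 55 reads.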
